A study of Homo sapiens with 6 samples.

Results

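The integrated stress response and the unfolded protein response are described here in SKOV3 cells, an established human ovarian cancer cell line, with and without silencing of KLF5. The genes were taken by name from a fixed list, which was chosen with earlier results of these data known. They are 41 of the 29185 genes of the deposited table, and each was listed once. They were divided into an ATF4 arm of 29 genes (regulators, stress effectors, enzymes of amino acid and one-carbon metabolism, and tRNA synthetases) and an ER arm of 12 genes (ER stress transcription factors, chaperones and genes of ER-associated degradation). The control group (sh-NC) carries the genotype WT in the labels, and the sh-KLF5 group carries the genotype KLF5 knockdown, with 3 libraries each. Both are stable SKOV3 lines that the study made with lentiviral pLKO vectors under puromycin selection, and no other treatment is named for them. The sources used here do not give the hairpin or the number of clones behind the knockdown line, and they do not say whether the 3 libraries of a group came from separate cultures, so the p-values measure only the spread between these libraries.

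Cells slow protein synthesis under stress by phosphorylating the initiation factor eIF2, through the kinases PERK, GCN2, PKR and HRI. The mRNA of ATF4, a bZIP transcription factor, is then translated more, and ATF4 with its C/EBP partners switches on genes for amino acid supply, serine and folate metabolism and tRNA charging. Unfolded proteins in the endoplasmic reticulum act through PERK and also through ATF6 and IRE1, which splices XBP1 mRNA, and these raise the chaperones and the degradation machinery of that compartment. Much of this regulation acts on translation, cleavage or splicing, which gene-level read counts do not measure.

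The 6 libraries held 15852319 to 17543896 reads on genes, and the values below are normalized counts, that is, reads divided by 1 factor per library. The silenced gene KLF5 had 4371, 4425 and 4494 normalized counts in the controls and 1745, 1440 and 1436 in sh-KLF5, so 34.8% of the control level was left. Sh-KLF5 library 1 stood apart from the other knockdown libraries, with a chi-square per gene of 26.3 and 33.7 against them, where those libraries differed from each other by 11.6 and pairs of sh-NC libraries by 4.7 to 9.3. The share of reads on mitochondrially encoded genes was 5.25% to 5.62% in sh-NC and 4.78% to 5.45% in sh-KLF5. Of the epithelial markers, KRT7, KRT8 and KRT18 were abundant and fell, EPCAM and ERBB2 were detected without passing the test, and KRT19 was near 0. The summed epithelial list went from 3270 to 3890 depth-scaled read counts (CPM) in sh-NC to 1720 to 2280 in sh-KLF5. The 4 fibroblast markers summed to 58.7 to 86.6 CPM in sh-NC and 20.4 to 39 CPM in sh-KLF5, the 3 endothelial markers to between 2.02 and 5.17 CPM in all libraries, and the leukocyte markers PTPRC and CD68 to at most 0.187 CPM. The part of these shifts in the results below was not tested. All libraries are of the SKOV3 line, and in its bulk RNA fewer cells that express a marker and less RNA per cell cannot be told apart.

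The groups were compared over all 15803 genes with enough reads, with limma on log2(normalized count + 1), so that fold changes of genes with few reads are understated. A gene is said to have risen or fallen where its p-value, adjusted by Benjamini-Hochberg over all tested genes, fell below 0.05. All 41 genes were tested. In sh-KLF5 cells 3 of them rose (CEBPB, STC2 and DNAJB9) and 5 fell (WARS, MTHFD2, ALDH1L2, PSAT1 and PHGDH), while the other 33 did not pass. This is 19.5% of the genes, beside 12.9% of all tested genes (6.04% higher and 6.85% lower in sh-KLF5). With the fold threshold of the study (log2 fold change above 1 or below -1), 2 rose and 2 fell, where 5.28% of all tested genes passed (1.9% higher and 3.37% lower). The median log2 fold change was -0.11 over the ATF4 arm and 0.09 over the ER arm, beside -0.0023 over all tested genes. Of the 29 ATF4 arm genes 2 rose and 5 fell, and of the 12 ER arm genes 1 rose and none fell (limma, with 4 higher and 0 lower at an unadjusted p under 0.05, and 0 lower with edgeR or DESeq2). The knockdown and control libraries did not overlap for 17 of the 41 genes, beside 31.3% of all tested genes, with 9 higher in sh-KLF5 (15.4% of all tested genes) and 8 lower (15.9%). The number that rose was 6 without sh-KLF5 library 1, 5 without sh-KLF5 library 3, and 2 when sh-KLF5 library 2 or any 1 of the sh-NC libraries was left out. The numbers were 4 rising and 6 falling with DESeq2 on the recovered reads.

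**Figure D1:**
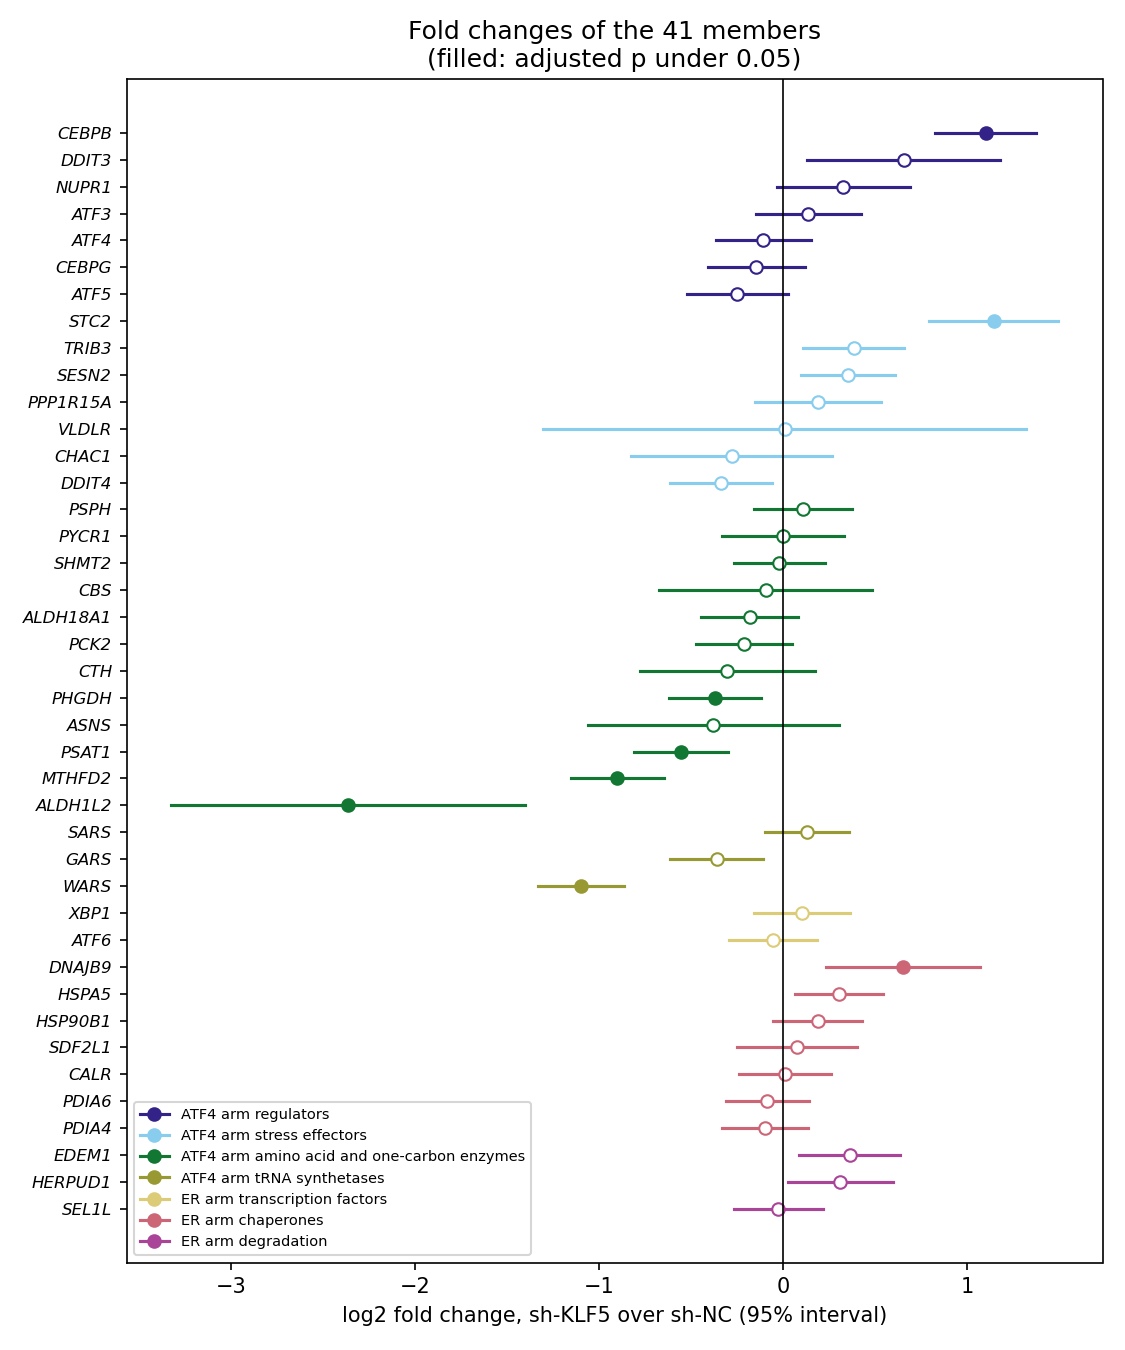
Log2 fold change of each of the 41 genes in sh-KLF5 over sh-NC (x axis, log2 scale) with its 95% interval from limma, in the colour of its role; filled points have an adjusted p-value under 0.05. The fallen genes are 4 enzymes and 1 tRNA synthetase of the ATF4 arm, with WARS at -1.10 and MTHFD2 at -0.90, while CEBPB (1.10), STC2 (1.14) and DNAJB9 (0.65) lie to the right of 0.

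The first question was whether ATF4 itself and its partners changed at the RNA level. ATF4 had 2634, 2581 and 3077 normalized counts in the controls and 2325, 2518 and 2854 in sh-KLF5. The groups overlapped, and the log2 fold change was -0.11 with a 95% interval from -0.36 to 0.15 (adjusted p = 0.62, limma). ATF5, a related bZIP factor translated under the same control, had 1834 ± 135 normalized counts in the controls and 1552 ± 249 after knockdown (SD, n = 3), a log2 difference of -0.25 (adjusted p = 0.24, limma). About 23.7% of its exonic bases are shared with genes that include NUP62 on the opposite strand. ATF3, which ATF4 induces and which in turn acts on its targets, had 339 ± 18.8 and 373 ± 28.0 normalized counts, and CEBPG, the small C/EBP protein that pairs with ATF4, had 1416 ± 136 and 1281 ± 145. Neither passed the test, with overlapping groups for both genes.

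CEBPB rose. It encodes a C/EBP factor that can pair with ATF4 and also acts in inflammation and differentiation (ENSG00000172216, chromosome 20 of GRCh38 from 50190734 to 50192689, + strand). The normalized counts of this gene were 1362, 1358 and 1717 in the sh-NC libraries and 2796, 3525 and 3172 in the sh-KLF5 libraries. Every knockdown library lay above every control library, and the mean was 2.14-fold that of sh-NC. The log2 change was 1.10 (SE, the standard error, 0.13, with adjusted p = 2.24e-05, limma), and over 15 alternative settings it lay between 1.02 and 1.21, past the threshold in all of them. CEBPB is read from a single stretch of the chromosome of which 11.8% is shared with CEBPB-AS1 on the opposite strand, and that antisense gene had a mean of 44.1 normalized counts in the controls and 37.1 in sh-KLF5.

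DDIT3 (CHOP), a C/EBP-related factor of prolonged ER stress, had low counts. It had 48.4, 60.1 and 83.8 normalized counts in the controls and 78.5, 110 and 112 in sh-KLF5. Its first knockdown library lay below the highest control library, and the log2 difference of 0.65 did not pass (adjusted p = 0.0985, limma). Without sh-KLF5 library 1 it was 0.82 and passed (adjusted p = 0.0263, limma). DDIT3 also passed with all libraries and the replicate number as a block (adjusted p = 0.0456, limma). Of its exonic bases 39.6% are shared with other genes, among them MARS and MBD6 on the opposite strand, so its counts are uncertain. NUPR1, a small stress-induced chromatin protein, had 167 ± 12.1 normalized counts in the controls and 212 ± 35.1 after knockdown (SD, n = 3), and did not pass.

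Among the stress effectors, STC2 rose. It encodes stanniocalcin 2, a secreted glycoprotein induced by ER stress (ENSG00000113739, chromosome 5 from 173314713 to 173329503, - strand). The sh-NC libraries had 561, 486 and 548 normalized counts and the sh-KLF5 libraries 943, 1063 and 1607. The groups were separate, with sh-KLF5 library 3 the highest by far, and the mean was 2.27-fold that of sh-NC. The log2 change was 1.14 (SE 0.17, adjusted p = 0.000164, limma). Without sh-KLF5 library 3 it was 0.92, still past the p threshold but no longer past the fold threshold.

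The other stress effectors did not pass. TRIB3, a pseudokinase that feeds back on ATF4, had 416, 462 and 496 normalized counts in the controls and 615, 637 and 538 in sh-KLF5, and SESN2, a leucine sensor that restrains mTORC1, had 532, 505 and 506 against 612, 674 and 687. The groups of both genes were separate, with log2 differences of 0.38 and 0.35 (adjusted p = 0.0655 and 0.066, limma). Without sh-KLF5 library 1 both passed, with adjusted p-values of 0.0499 and 0.0129 (limma). TRIB3 also passed with all libraries and the replicate number as a block (adjusted p = 0.0486, limma). DDIT4 (REDD1), another mTORC1 inhibitor, pointed the other way. It had 1339, 1385 and 1456 normalized counts in the controls and 953, 1334 and 1053 in sh-KLF5, a log2 difference of -0.34 (adjusted p = 0.108, limma), which passed without sh-KLF5 library 2 (-0.47, adjusted p = 0.0281, limma). The groups were separate by a narrow gap, and 41.2% of its exonic bases are shared with DDIT4-AS1 on the opposite strand. PPP1R15A (GADD34), the phosphatase subunit that removes phosphate from eIF2, had 737 normalized counts in sh-KLF5 library 1, below all the controls, and 1036 and 1219 in libraries 2 and 3, above them (sh-NC 872, 759 and 948). Its log2 difference was 0.19 (adjusted p = 0.499, limma) with all libraries and 0.39 (adjusted p = 0.0196, limma) without sh-KLF5 library 1. CHAC1, a glutathione-degrading enzyme and usually a sensitive ATF4 target, stayed between 46.9 and 94.2 normalized counts in all 6 libraries, and VLDLR, a lipoprotein receptor, between 2.96 and 14.9.

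The largest group of fallen genes lay in amino acid and one-carbon metabolism, where 4 of 12 enzymes fell and none rose (limma, with 0 higher at an unadjusted p under 0.05, and 0 with edgeR or DESeq2). Over all tested genes 6.85% fell. The median log2 fold change of the enzymes was -0.26. Of these 4 calls that of PHGDH was lost in 6 of 15 alternatives, and ALDH1L2 was not tested where every library had to hold at least 10 reads. Serine is made from a glycolytic intermediate by PHGDH, PSAT1 and PSPH in turn. PHGDH (ENSG00000092621, chromosome 1 from 119648411 to 119744226) had 2406, 2373 and 2653 normalized counts in the controls and 1752, 2149 and 1860 in sh-KLF5. PSAT1 (ENSG00000135069, chromosome 9 from 78297143 to 78330093) had 2160, 1852 and 1969 against 1506, 1212 and 1362. The groups of both genes were separate, with 77.5% and 68.2% of the control level left. The log2 fold change of PSAT1 was -0.55 (SE 0.12, adjusted p = 0.00496, limma), past the threshold under every alternative run. That of PHGDH was -0.37 (SE 0.12, adjusted p = 0.0481, limma), close to the threshold. Leaving out sh-NC library 1, 2 or 3 or sh-KLF5 library 3 gave PHGDH an adjusted p of 0.137, 0.132, 0.181 and 0.0999 (limma), no longer past it. PSPH, the last step, differed by 0.11 on the log2 scale (95% interval -0.16 to 0.37, adjusted p = 0.643, limma), and the pseudogene PSPHP1 may share its reads.

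In the mitochondrial folate pathway SHMT2 passes a carbon unit from serine to folate, MTHFD2 oxidizes it, and ALDH1L2 releases it as carbon dioxide with production of NADPH. MTHFD2 (ENSG00000065911, chromosome 2 from 74198562 to 74217565) had 2587, 2338 and 2486 normalized counts in the controls and 1417, 1154 and 1409 in sh-KLF5. All knockdown libraries lay far below the controls, and 53.7% of the control level was left. The log2 change was -0.90 (SE 0.12, adjusted p = 7.1e-05, limma), and between -0.95 and -0.80 over 15 alternatives, all past the threshold. About 33.2% of its exonic bases are shared with SLC4A5 and AC006030.1 on the opposite strand, which had means of 8.49 and 1.64 normalized counts in sh-NC. ALDH1L2 (ENSG00000136010, chromosome 12 from 105019784 to 105084577) was scarce, with 76, 55 and 26 reads in sh-NC and 4, 11 and 13 in sh-KLF5. Even so the groups were separate and 18.2% of the control level was left, with a log2 change of -2.36 (SE 0.45, adjusted p = 0.00194, limma) that carries a large counting error. SHMT2 did not pass, with 1877 ± 187 normalized counts in the controls and 1845 ± 110 after knockdown (SD, n = 3) and a 95% interval of the log2 difference from -0.27 to 0.23.

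**Figure D2:**
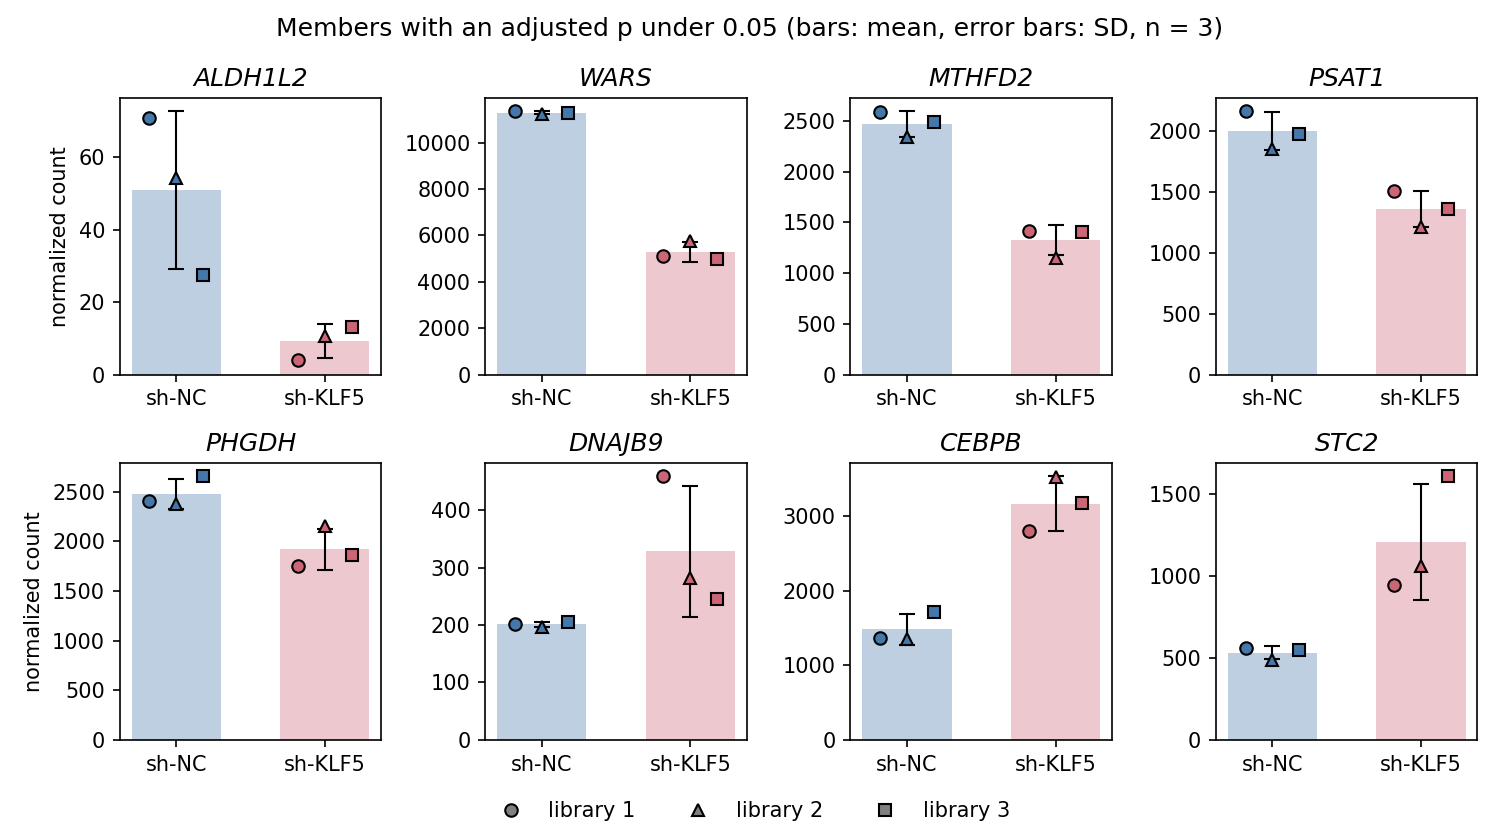
Normalized counts (y axis, linear, from 0) of the 8 genes with an adjusted p-value under 0.05 in sh-NC and sh-KLF5 cells; bars are means, error bars SD (n = 3), and the marker shape gives the library number. The groups do not overlap in any of the 8 genes, and sh-KLF5 library 1 is the highest for DNAJB9 (459 normalized counts) and library 3 for STC2 (1607).

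The remaining enzymes did not pass. ASNS, asparagine synthetase and one of the best known ATF4 targets, had low counts, with 43.8, 27.6 and 30.8 normalized counts in the controls and 20.4, 32.0 and 25.1 in sh-KLF5. Its 95% interval on the log2 scale ran from -1.06 to 0.30, so a fall as large as the fold threshold lies within it at this depth. Of its exonic bases 44.6% also belong to AC079781.5 on the same strand, so reads there may not have been assigned to it. ALDH18A1 and PYCR1, which make proline, differed by -0.18 and -0.0014 on the log2 scale (adjusted p = 0.384 and 0.998, limma), and 29.7% of the exonic bases of PYCR1 are shared with other genes. CTH, the last enzyme of the transsulfuration pathway to cysteine, had 106 ± 21.1 and 85.4 ± 15.7 normalized counts (SD, n = 3). CBS, the first, had 515, 621 and 576 normalized counts in sh-NC but 317, 613 and 777 in sh-KLF5, so that the knockdown libraries lay both below and above all the controls. Its log2 difference was -0.09 with all libraries and 0.28 without sh-KLF5 library 1, past the threshold in neither fit. CBSL, which is annotated as a near copy of CBS, was listed with 62.5 normalized counts in the controls and 40.6 in sh-KLF5, so the split of reads between them is uncertain. PCK2, the mitochondrial form of PEP carboxykinase, had separate groups (578, 663 and 694 against 573, 551 and 538 normalized counts), and its log2 difference of -0.22 did not pass (adjusted p = 0.294, limma).

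WARS, the cytoplasmic tryptophanyl-tRNA synthetase, is a housekeeping enzyme that interferon also induces, and it had the smallest p-value of the 41 genes. It lies on chromosome 14 from 100333788 to 100376805 on the - strand (ENSG00000140105). The normalized counts of this gene were 11354, 11248 and 11261 in sh-NC and 5103, 5773 and 4968 in sh-KLF5, so 46.8% of the control level was left. The control libraries were nearly equal, and the knockdown libraries lay together far below them. The log2 change was -1.10 (SE 0.11, adjusted p = 4.74e-06, limma), and between -1.16 and -1.06 over 15 alternatives, all past the threshold. On the opposite strand WDR25 and AL157871.4 share 10.6% of its exonic bases, and WDR25 had 134 normalized counts in the controls and 149 in sh-KLF5. GARS, the glycyl-tRNA synthetase, had 2239, 2320 and 2234 against 1737, 1557 and 2019 normalized counts, with separate groups and a log2 difference of -0.36 just short of the threshold (adjusted p = 0.0581, limma). GARS passed without sh-KLF5 library 1 (adjusted p = 0.0239) and without library 3 (adjusted p = 0.022, limma), and with all libraries in DESeq2 (adjusted p = 0.0378) and in limma with the replicate block (adjusted p = 0.0309). SARS, the seryl-tRNA synthetase, had 1887 ± 51.0 normalized counts in the controls and 2063 ± 58.0 after knockdown (SD, n = 3), with separate groups and a log2 difference of 0.13 that did not pass.

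WARS supplied most of the fall of the ATF4 arm as a sum. The 29 genes summed to 40746 ± 1317 normalized counts in the controls and 33645 ± 2172 after knockdown (SD, n = 3), 82.6% of control. Without WARS the sums were 29458 ± 1318 and 28364 ± 2178, or 96.3%, and the libraries of the groups then overlapped, from 28259 to 30869 in sh-NC and from 26131 to 30482 in sh-KLF5. Such sums follow the genes with the most reads, and rises and falls offset each other in them. In the sum without WARS, CEBPB went from a mean of 1479 to 3164 normalized counts and MTHFD2 from 2471 to 1326.

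ATF4 with a C/EBP partner binds the C/EBP-ATF response element, searched here as TGATGNAA on both strands in RefSeq promoter windows (GRCh38.p14) from 250 bases before to 50 bases after the start. A window was matched for 36 of the 41 genes. The element was found in 3 of 24 ATF4 arm windows (12.5%) and in 1 of 12 ER arm windows (8.33%), beside 3.67% of 27305 windows of all genes. The ATF4 arm was listed for its part in this response, so its share is not independent of the element chosen. The 4 matches follow with the element in capitals, to show the letters that these 3 ATF4 arm windows and the ER arm window of HERPUD1 share, read along the gene's strand.
ATF3 chr1:212565196-212565243 (+ strand): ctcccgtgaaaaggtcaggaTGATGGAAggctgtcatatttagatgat
CHAC1 chr15:40953251-40953280 (+ strand): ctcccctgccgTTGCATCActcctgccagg
ASNS chr7:97872458-97872487 (- strand): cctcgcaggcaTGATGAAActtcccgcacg
HERPUD1 chr16:56931946-56931993 (+ strand): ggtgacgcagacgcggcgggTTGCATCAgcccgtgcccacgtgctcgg
In CHAC1 and HERPUD1 the element stands on the opposite strand. None of these 4 genes rose or fell, and none of the 7 genes that rose or fell and had a window held this element within it. Elements in introns or further upstream would not be seen in these windows.

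**Figure D3:**
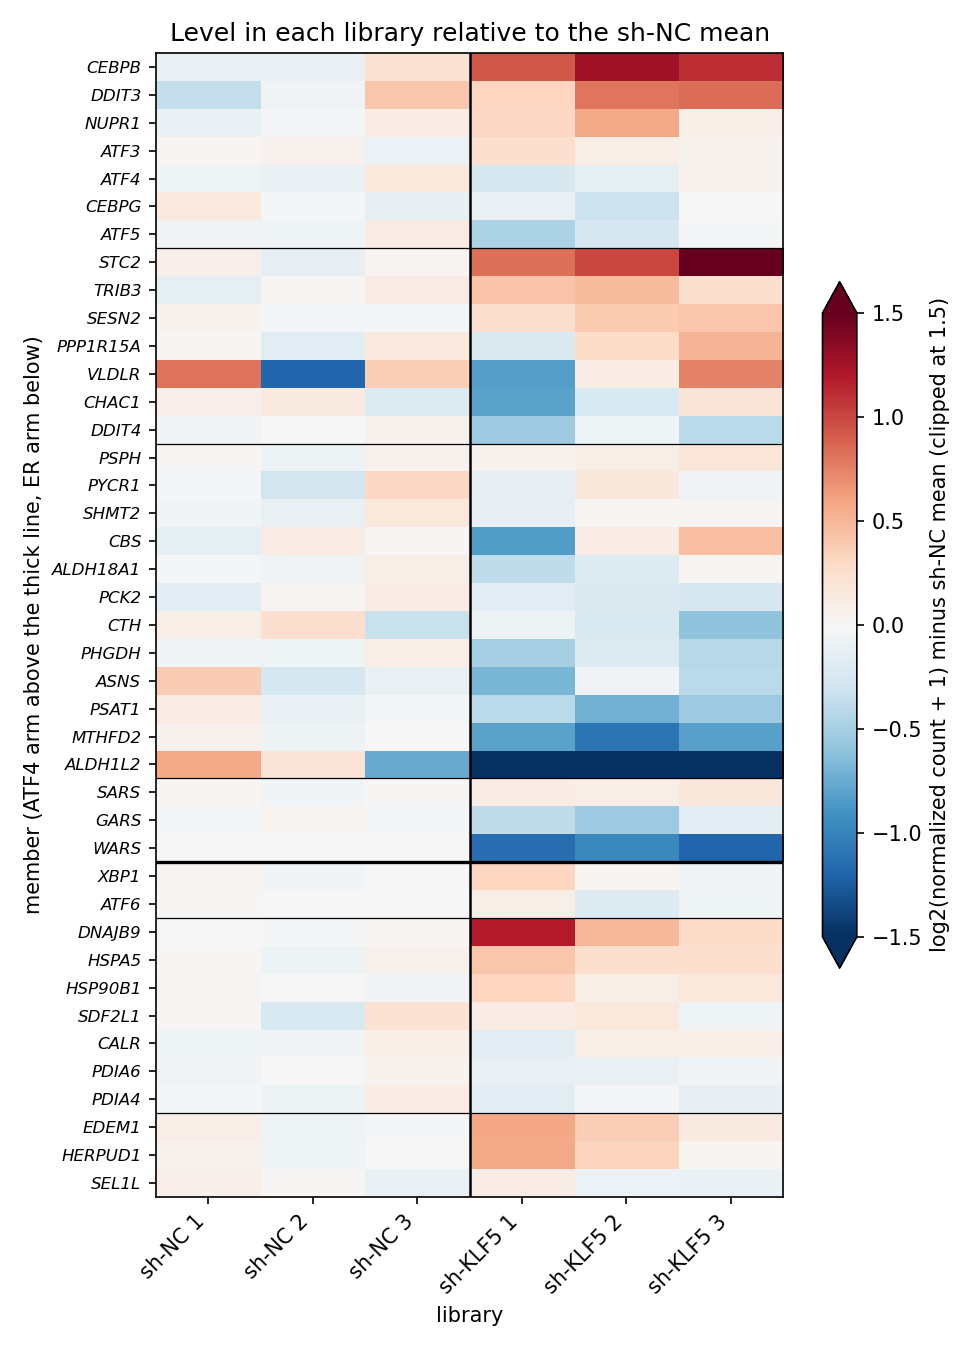
Level of each of the 41 genes in each of the 6 libraries (x axis) as log2(normalized count + 1) minus the sh-NC mean, clipped at 1.5 in both directions; the thick line divides the ATF4 arm (above) from the ER arm (below). WARS, MTHFD2, PSAT1 and ALDH1L2 are blue and CEBPB and STC2 are red in all 3 sh-KLF5 libraries, and DNAJB9, EDEM1 and HERPUD1 are reddest in sh-KLF5 library 1.

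In the ER arm, DNAJB9 was the gene that rose. It encodes ERdj4, an ER co-chaperone of the HSP70 protein BiP and a target of spliced XBP1 (ENSG00000128590, chromosome 7 from 108569568 to 108574850, + strand). The normalized counts of this gene were 201, 197 and 206 in sh-NC and 459, 282 and 245 in sh-KLF5. All knockdown libraries lay above the controls, library 1 by far the most. The log2 change was 0.65 (SE 0.20, adjusted p = 0.039, limma). Without sh-KLF5 library 1 it was 0.38 with an adjusted p of 0.0887, and without sh-KLF5 library 2 it was 0.73 with an adjusted p of 0.0623 (limma). Leaving out sh-NC library 1, 2 or 3 gave adjusted p-values of 0.0957, 0.127 and 0.117 (limma), so the call was lost without any of these 5. About 6.5% of its exonic bases are shared with THAP5 and PNPLA8 on the opposite strand. THAP5 fell (1001 to 667 mean normalized counts). PNPLA8 pointed the other way, with means of 704 in sh-NC and 898 in sh-KLF5, and did not pass (adjusted p = 0.0639, limma). The part of shared reads in the counts of DNAJB9 was not tested.

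The major ER chaperones did not pass. HSPA5 (BiP), the HSP70 chaperone that also holds the ER stress sensors inactive, had 14798, 13868 and 15387 normalized counts in the controls and 19499, 17438 and 17430 in sh-KLF5. Its groups were separate, and the log2 difference of 0.30 (SE 0.11) had an adjusted p of 0.0928 with limma and 0.0453 with DESeq2. HSP90B1 (GRP94), the ER HSP90 protein, had 14171, 13724 and 13394 against 17140, 14567 and 15363 normalized counts, with separate groups and a log2 difference of 0.19 (adjusted p = 0.324, limma). The disulfide isomerases PDIA4 and PDIA6 had log2 differences of -0.10 and -0.09, and the calcium-binding lectin chaperone CALR one of 0.01 (95% interval -0.24 to 0.26). SDF2L1, a small luminal protein of the BiP complex, had 285 ± 43.2 and 298 ± 24.2 normalized counts (SD, n = 3). Summed over the 12 ER arm genes, sh-NC had 57428 ± 1604 normalized counts and sh-KLF5 63057 ± 2244, 110% of control, and without HSPA5 the sums were 42744 ± 842 and 44934 ± 1054.

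The 2 transcription factors of the ER arm, XBP1 and ATF6, had 1499 ± 45.7 and 1740 ± 15.2 normalized counts in the controls and 1618 ± 230 and 1679 ± 162 after knockdown (SD, n = 3), without passing the test. Of the degradation genes, HERPUD1, a membrane protein of the retrotranslocation complex, had 1099, 1006 and 1061 normalized counts in the controls and 1565, 1327 and 1076 in sh-KLF5. EDEM1, which directs misfolded glycoproteins to degradation, had 1232, 1099 and 1126 against 1726, 1481 and 1261. The log2 differences were 0.31 and 0.36 (adjusted p = 0.154 and 0.0795, limma), and both genes passed without sh-KLF5 library 3 (adjusted p = 0.0347 and 0.0259, limma). In both, sh-KLF5 library 3 was the lowest knockdown library and sh-KLF5 library 1 the highest. EDEM1 also passed with all libraries and the replicate number as a block (limma). SEL1L, the adaptor of the ER ubiquitin ligase, differed by -0.03 (95% interval -0.27 to 0.22).

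Among the knockdown libraries, library 1 was thus low in the ATF4 arm and high in the ER arm. It was the lowest of the 3 for 18 of 29 ATF4 arm genes (62.1%) and the highest for 8 of 12 ER arm genes (66.7%), where over all tested genes it was the lowest for 38.8% and the highest for 40.5%. The mean log2 deviation from the sh-NC mean over the ATF4 arm was -0.30 in sh-KLF5 library 1, -0.06 in library 2 and 0.0027 in library 3, and over the ER arm 0.27, 0.12 and 0.04. The sh-NC libraries lay between -0.07 and 0.04 for the ATF4 arm and between -0.05 and 0.03 for the ER arm. Every gene weighs the same in these means, also those with few reads. ALDH1L2, with 4, 11 and 13 reads in sh-KLF5 libraries 1, 2 and 3, thus lowers the ATF4 arm means of all of them, most in library 1. The falls of WARS, MTHFD2 and PSAT1 and the rise of CEBPB did not rest on that library, as their log2 fold changes without it were -1.08, -0.95, -0.63 and 1.19, all past the threshold.

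ATF6 binds the ER stress response element together with NF-Y, searched here as CCAAT and CCACG with 9 bases of any kind between them, on both strands of the same windows. It was found in 4 of 12 ER arm windows (33.3%) and in none of the 24 ATF4 arm windows, beside 0.0806% of all windows. The ER arm genes were listed for their part in this response, so their share is not independent of the element chosen. The 5 copies in XBP1, HSPA5, HSP90B1 and CALR follow in capitals, to show the letters these windows share.
XBP1 chr22:28800598-28800626 (- strand): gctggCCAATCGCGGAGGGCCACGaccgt
HSPA5 chr9:125241371-125241429 (- strand): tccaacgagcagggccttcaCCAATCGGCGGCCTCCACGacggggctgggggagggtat
HSP90B1 chr12:103930211-103930239 (+ strand): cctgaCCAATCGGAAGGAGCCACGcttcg
HSP90B1 chr12:103930316-103930344 (+ strand): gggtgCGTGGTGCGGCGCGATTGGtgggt
CALR chr19:12938364-12938422 (+ strand): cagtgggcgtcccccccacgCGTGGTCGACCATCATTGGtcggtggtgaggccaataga
The second copy of HSP90B1 and that of CALR stand on the opposite strand. The log2 differences of these 4 genes were 0.10, 0.30, 0.19 and 0.01, and none passed with limma, while HSPA5 passed with DESeq2. The unfolded protein response element, TGACGTGG, was found in the window of 1 of the 36 genes, ALDH18A1 (0.795% of all windows), which did not pass the test either.

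KLF5 and its relatives bind GC-rich boxes, searched as GGGNGGGGC on both strands. This box was found in 8 of the 36 windows (22.2%), beside 20.4% of all windows. Of the 7 rising or falling genes with a window, WARS alone held it (14.3%, below the share of all windows). It stands on the opposite strand, as shown next in capitals.
WARS chr14:100376375-100376403 (- strand): ggcggcctctGCCCCGCCCccgcgcgaac
The other windows with this box are those of DDIT3, CHAC1, ASNS, CTH, PCK2, HSPA5 and EDEM1, none of which passed with limma, while HSPA5 passed with DESeq2. These matches are letters in a window and were not tested for binding.

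Per length of exon, the ER chaperones CALR, HSPA5 and HSP90B1 were the most abundant of the 41 genes in sh-NC. This length counts every annotated exon of a gene, for example 6358 bases for WARS and 3277 for PDIA4. The order of the genes depends on it. CALR had 247 ± 11.1 CPM per kb of exon in sh-NC and 251 ± 24.2 after knockdown (SD, n = 3), HSPA5 228 ± 9.07 and 283 ± 21.3, and HSP90B1 178 ± 7.66 and 204 ± 17.4. The mean of HSPA5 was thus below that of CALR in sh-NC and above it in sh-KLF5. The ranges of mean ± SD overlapped in both groups, while within each library the order was that of its group means. This order was not tested. In the ATF4 arm, WARS led in sh-NC with 108 ± 2.1 CPM per kb, which did not differ beyond the spread from PDIA4 (110 ± 5.57), and in sh-KLF5 it stood at 50.7 ± 5.43. CEBPB led that arm in sh-KLF5 with 98.7 ± 12.7 CPM per kb, against 45.8 ± 5.55 in sh-NC. At the low end stood ASNS, ALDH1L2 and VLDLR, with 0.464, 0.364 and 0.0615 CPM per kb in sh-NC. The value of ASNS is over its full exonic length, of which 44.6% also belongs to AC079781.5 on the same strand, so it may be understated.

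**Figure D4:**
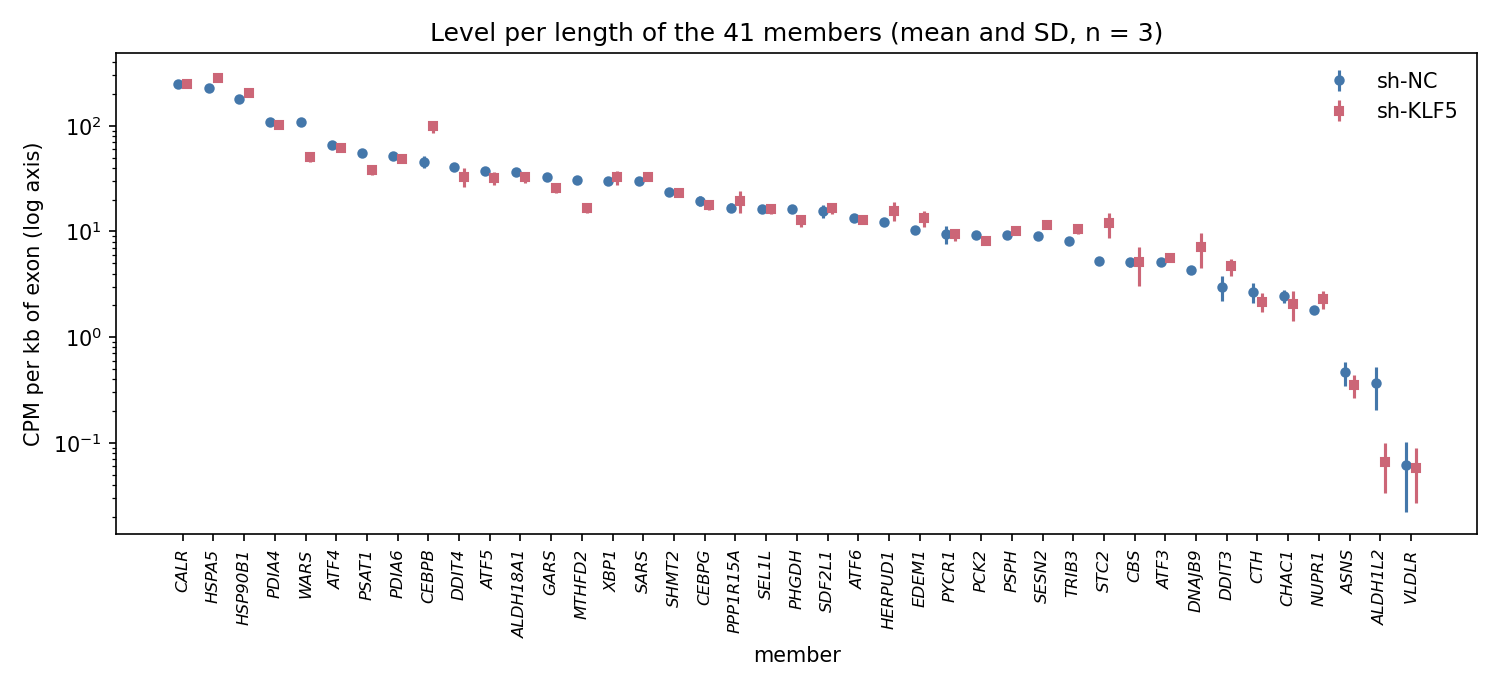
Level of each gene in CPM per kb of exon (log axis; mean and SD, n = 3) in sh-NC and sh-KLF5 cells, ordered by the sh-NC level. WARS moves from 108 to 50.7 and CEBPB from 45.8 to 98.7, while CALR stays at 247 and 251.

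Other genes of these pathways were read from lists written down with the 41 genes, with earlier results of these data known. The shares of these lists given below are thus not independent of the data. Over all tested genes, 12.9% passed, with 6.04% higher and 6.85% lower in sh-KLF5. The share that passed was 10% of the eIF2 list, 17.6% of the other tRNA synthetases and 5.88% of the further ER folding genes (limma). Of 10 genes around eIF2 phosphorylation, 1 fell and none rose (limma, with 0 higher at an unadjusted p under 0.05, and 0 with edgeR or DESeq2). This was EIF2AK2 (PKR), the kinase that senses double-stranded RNA and is induced by interferon, with a log2 fold change of -0.48 (adjusted p = 0.00988). The kinase genes EIF2AK1, EIF2AK3 and EIF2AK4 did not pass, nor did ERN1, which encodes IRE1. Of 17 other cytoplasmic tRNA synthetases, 3 fell and none rose, also with edgeR and DESeq2, and 0 were higher at an unadjusted p under 0.05 (limma). They were FARSB (-0.56, adjusted p = 0.00513), IARS (-0.37, adjusted p = 0.0422) and EPRS (-0.35, adjusted p = 0.044, limma). The median log2 fold change of these 17 was -0.13, and WARS, at -1.10, lay outside their range of -0.56 to 0.17.

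Of 8 amino acid transporters under ATF4 control, 3 fell and 1 rose, which is 50% of them, beside 12.9% of all tested genes. SLC6A9, a glycine transporter, fell by 0.90 on the log2 scale (adjusted p = 0.000352), SLC7A5, the large neutral amino acid exchanger that carries tryptophan, fell by 0.69 (adjusted p = 0.00177), and SLC7A11, the cystine exchanger, rose by 0.60 (adjusted p = 0.0149, limma).

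Of 12 other tested ATF4 targets, 3 rose and 3 fell, or 3 and 2 with DESeq2. With limma this is 50% of them, beside 12.9% of all tested genes. BBC3 (PUMA), a pro-apoptotic BH3-only protein that p53 also induces, had 79.3 normalized counts in the controls and 213 in sh-KLF5 (log2 fold change 1.41, adjusted p = 0.000433, limma). INHBE, an activin subunit, and GDF15, a stress cytokine, both had few reads and fell, with log2 fold changes of -1.36 and -1.24 (adjusted p = 0.0483 and 0.034, limma). FGF21 had too few reads for the test.

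Among 17 further ER folding genes, 1 fell and none rose, also with edgeR and DESeq2 (2 higher and 2 lower at an unadjusted p under 0.05, limma). It was CANX, calnexin, the membrane-bound partner of calreticulin, with 24791 normalized counts in the controls and 17871 in sh-KLF5 (log2 fold change -0.47, adjusted p = 0.00857, limma). None of 11 tested degradation genes, none of 6 further ER stress factors and none of 11 heat shock genes of cytosol and mitochondria passed with limma, edgeR or DESeq2. At an unadjusted p under 0.05 (limma) these lists held 1, 0 and 3 genes, and their median log2 fold changes were -0.17, 0.02 and 0.07.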

How the data were processed

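RNA of 3 sh-NC and 3 sh-KLF5 libraries of SKOV3 cells was compared. The authors deposited 1 table of normalized signal, that is, counts of reads per gene divided by 1 factor per library; the submitters' processing notes name hg38, HISAT2 2.0.5, featureCounts 1.5.0-p3 and DESeq2 1.20.0. The counting strand and the handling of shared reads are not given in the sources used here. The deposited group means, fold changes and p-values of the authors' own comparison were not used. The smallest value above 0 of a library was taken as 1 read; in that unit 100% of the values were whole (tolerance 0.01), giving 15852319 to 17543896 reads per library.

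Genes passing edgeR's filterByExpr (minimum count 10), 15803 of 29185, were fitted with limma 3.58.1 (R 4.3.3, with a mean-variance trend and robust moderation) on log2(normalized count + 1), with Benjamini-Hochberg adjustment over all of them. Alternatives were edgeR 4.0.16 and DESeq2 1.42.0 on the recovered reads, other scalings, pseudocounts and filters, the replicate number as a block, and leaving out each library. On data simulated for this comparison over 15803 genes, limma recovered 75% of changes of 1 and 92% of changes of 1.5 on the log2 scale, with 13 false calls. Only 100 genes were changed at each size, where 2038 were called in the real data. No simulated library stood apart as sh-KLF5 library 1 did, so these shares may not hold for the real libraries. Exons came from GENCODE release 29, which gave the same coordinates for 29180 of the 29185 genes. Promoter windows came from RefSeq (GRCh38.p14). CPM per kb used the deposited exonic length. The 41 genes, their roles and the other lists were chosen with earlier results of these data known, and the motifs after the values had been seen. All 41 are named, and of each other list at most the 3 genes that passed with the largest change are given with values. CD3E, fixed as a leukocyte marker, was not analysed here. One of the other lists is not reported here.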

Additional observations from a re-analysis of the deposited data

How the results depend on the processing

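The number of the 41 genes past the threshold moved with single libraries. Leaving out each library in turn gave 2 to 6 rising and 4 to 6 falling genes, with 1 to 2 rising and 2 falling past the fold threshold. In the ATF4 arm this was 2 to 6 rising and 4 to 6 falling, in the ER arm 0 to 3 rising and 0 falling, and over all tested genes 518 to 1272 rising and 699 to 1514 falling, against 955 and 1083. When every library had to hold at least 10 reads, 3 genes fell, all in the ATF4 arm, and 1 past the fold threshold, since ALDH1L2 was then not tested and PHGDH had an adjusted p of 0.0521 (limma). In the ER arm 2 genes rose with DESeq2, and 0 with library size only (limma; DNAJB9 had an adjusted p of 0.0511). Libraries were not paired by their replicate numbers, as the correlations of same-numbered deviations were 0.059, 0.033 and 0.05. With the replicate block 6 genes rose, 4 in the ATF4 arm and 2 in the ER arm. The medians of both arms kept their sign throughout, from -0.19 to -0.02 and from 0.04 to 0.16 without 1 library.

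Of the genes that did not pass, PYCR1 turned to 0.0058 with library size only, and VLDLR, with few reads, to -0.087 (edgeR), -0.089 (DESeq2), -0.088 (TMM) and -0.0195 (pseudocount 5). Without 1 library the sign turned for SHMT2 (-0.078 to 0.058), PYCR1 (-0.141 to 0.156), VLDLR (-0.585 to 0.426), CBS (-0.367 to 0.279), CALR (-0.036 to 0.096), XBP1 (-0.0106 to 0.18), ATF6 (-0.127 to 0.0118), SDF2L1 (-0.038 to 0.182) and SEL1L (-0.099 to 0.0127), and the cause was not tested. Genes with under about 100 reads on average (ASNS, ALDH1L2, VLDLR, CHAC1, DDIT3 and CTH) carry a large counting error. For ASNS and DDIT3, 44.6% and 39.6% of the exonic bases are also shared with other genes. Their low counts may thus not reflect the RNA level alone.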
